A study of Mus musculus with 6 samples.

Results

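Genes of transforming growth factor beta (TGF-beta) and bone morphogenetic protein (BMP) signalling were compared between the aortas of Mymsl knockout mice (KO), in which a long noncoding RNA gene is lost, and wild-type aortas (WT). The set held 35 genes chosen by symbol: 7 ligands, 9 receptors, 6 signalling Smads, 5 intracellular inhibitors, 4 antagonists at the cell surface or outside the cell, and 4 Id genes. All 35 had a row among the 53735 rows of the count table, and 33 passed the filter on low counts, out of 14145 rows that did. Each genotype had 3 libraries of RNA from smooth muscle cells that were purified from the medial layer of the aorta. The allele, strain, age and sex of the mice, and whether a library pooled animals, are not stated in the labels, so a p-value here reflects only how far these libraries spread, which may be technical.

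TGF-beta and BMP ligands bind pairs of type I and type II receptor kinases, and the type I receptor phosphorylates the receptor-regulated Smads. These join Smad4 and enter the nucleus, where BMP signals switch on the Id genes and the inhibitory Smads, which feed back on the pathway. In the aorta the pathway is known for its part in smooth muscle differentiation and in matrix production, and inherited faults in its receptors and Smads cause aortic aneurysm in humans.

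Total counts lay between 20048216 and 25521123 per library. No row carried the name Mymsl. The only row that edgeR called over the whole table, the clone-named RP23-57D10.3, had 0 counts in each KO library, against 314, 378 and 273 in WT replicates 1, 2 and 3. KO replicate 1 stood apart from the other libraries. Its mitochondrially encoded genes held 18.9% of counts, against 10.0% and 13.0% in KO replicates 2 and 3 and 5.66% to 9.02% in WT. Its summed level over 16 posterior Hox genes was 8.87 CPM (counts scaled to library size, after normalization by trimmed mean of M values). That sum was 16.4 and 40.1 CPM in KO replicates 2 and 3 and 32.2 to 41.5 CPM in WT. Only 7 of these 16 genes passed the filter, and Hoxb13 and Hoxd12 were at 0 in every library. The sum over 10 heart muscle markers (8 tested) was 183 CPM in KO replicate 1, against 122 and 119 CPM in KO replicates 2 and 3. In WT it was 97.7 to 129 CPM. Ryr2 made the largest part of this sum, and at 81.4 CPM in KO replicate 1 it lay within its WT range of 54.4 to 93.1 CPM. The mitochondrial share was also higher in every KO library than in every WT library. KO replicate 2, too, had a posterior Hox sum below the WT range. The part of these differences in the fold changes between genotypes was not tested. Smooth muscle markers (6 of 6 detected) summed to 39185, 52995 and 42990 CPM in KO and to between 47717 and 51010 CPM in WT. Macrophage markers (8 of 8 tested) summed to 44.5 to 118 CPM in KO and 48.7 to 84.3 CPM in WT, fat markers (7 of 8) to 113 to 243 and 113 to 206 CPM, Schwann and nerve markers (5 of 6, with Pmp2 at 0) to 13.4 to 36.8 and 15.8 to 21.7 CPM, and erythroid markers (5 of 5) to 25.6 to 35.5 and 20.3 to 152 CPM in KO and WT. For genes that stood apart in KO replicate 1, fold changes are also given without it.

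No gene of the pathway passed edgeR's quasi-likelihood test at an adjusted p of 0.05, where 0.00707% of all tested rows did. The smallest adjusted p among the members was 0.263. DESeq2 and limma-voom called 0 members too, where DESeq2 called 2.35% of its adjusted rows. At an unadjusted p under 0.05 there were 8 members with lower levels in KO (7.76% of all tested rows) and 2 with higher levels (6.8% of all tested rows), or 10 of 33 in either direction, where all tested rows had 14.6%. Members without overlap between the genotypes comprised 8 lower in KO, where all tested rows had 11.3%, and 1 higher, where they had 10.5%. KO and WT libraries did not overlap for 9 of 33 members (27.3%), close to the 21.8% of all tested rows. The direction was uneven: 24 of 33 members had a log2 fold change below 0, against 47.5% of all tested rows, and the median was −0.13, against 0.01 over all tested rows. Without KO replicate 1, the count below 0 was 17 of 33 and the median −0.031.

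**Figure D1:**
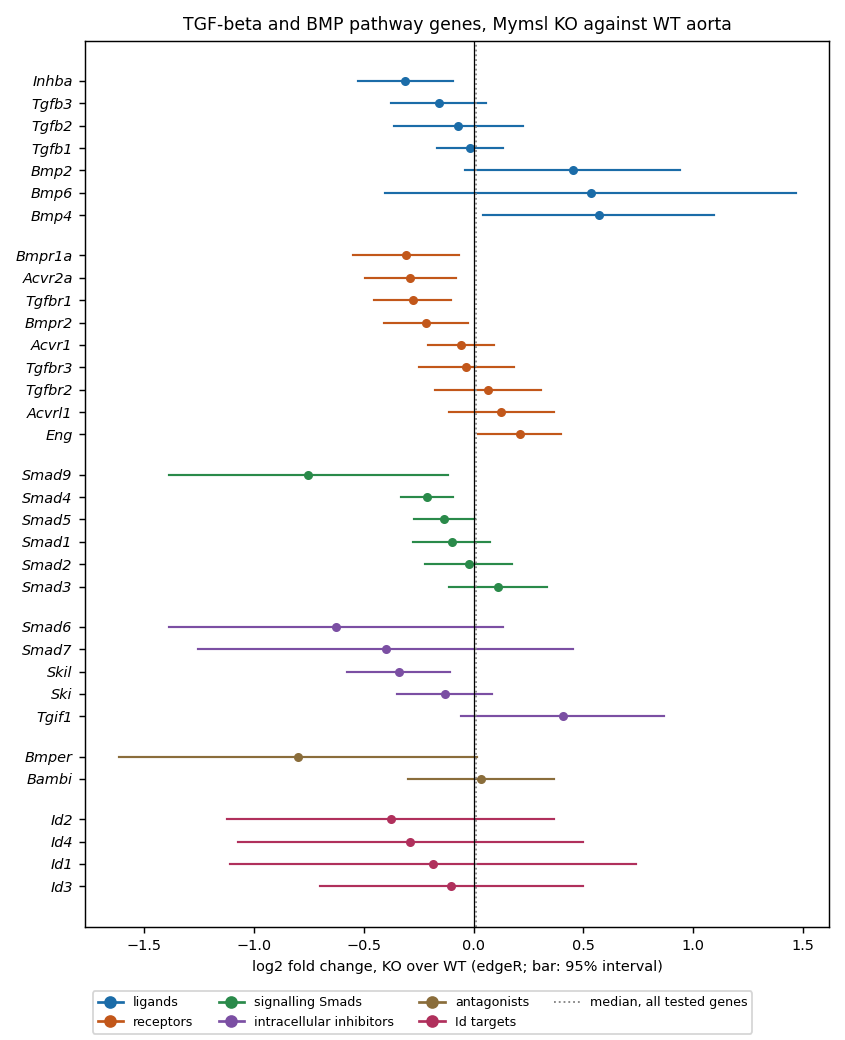
Log2 fold change of KO over WT for the 33 tested members, grouped by role, with 95% intervals from edgeR; the dotted line is the median of all tested genes. Intervals of Tgfbr1, Bmpr1a, Bmpr2, Acvr2a, Smad4, Smad9, Skil and Inhba lie below 0, those of Bmp4 and Eng above 0, and the Id genes have wide intervals that include 0.

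Among the ligands, the 3 TGF-beta genes and the activin subunit Inhba had fold changes below 0, and the 3 BMP genes had fold changes above 0. The class median was −0.02 over 7 genes, and 0 passed the test. Tgfb3, the most abundant ligand by count, measured 175, 169 and 188 CPM in KO libraries 1, 2 and 3, against 202, 175 and 218 CPM in WT libraries 1, 2 and 3. The groups overlapped, with a log2 fold change of −0.16 ± 0.093 (SE) and an edgeR adjusted p of 0.442. Inhba encodes a chain of activin A, which signals through Smad2 and Smad3. It measured 88.2, 105 and 110 CPM in KO, against 118, 129 and 130 CPM in WT. Every KO library was below every WT library (log2 −0.31 ± 0.093, edgeR adjusted p = 0.275), and without KO replicate 1 the fold change was −0.222. Tgfb1 lay between 29.9 and 31.6 CPM in KO and between 30.6 and 32.3 CPM in WT, and its 95% interval, from −0.17 to 0.13 on the log2 scale, was the third narrowest in the set.

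Bmp4, a BMP ligand with roles in vessel wall and mesoderm development, measured 34.8, 18.8 and 28.2 CPM in the KO libraries, against 20.5, 14.6 and 20 CPM in the WT libraries. KO replicate 2 lay within the WT range, and the other KO libraries lay above it (log2 0.57 ± 0.226, edgeR adjusted p = 0.321). Without KO replicate 1 the fold change was 0.355. The fibroblast markers, 8 of 8 tested, summed to 1328, 584 and 1012 CPM in KO and to 929, 521 and 889 CPM in WT. Bmp4 and this sum had the same order of libraries within each group, and the part of fibroblasts in the Bmp4 values was not tested. Bmp6 and Bmp2 were highest in KO replicate 3. Bmp6 measured 9.59, 18.0 and 34.5 CPM in KO, against 14.9, 11.6 and 16.6 CPM in WT (log2 0.53 ± 0.401). Its fold change was −0.056 without KO replicate 3 and 0.869 without KO replicate 1. Bmp2 measured 11.6, 8.84 and 16.4 CPM in KO and 9.05, 8.46 and 9.44 CPM in WT (log2 0.45 ± 0.211), and without KO replicate 3 its fold change was 0.185. Endothelial markers, 10 of 10 tested and none at 0, also summed highest in that library, with 527, 484 and 790 CPM in KO and 450 to 577 CPM in WT. Endothelium is a known source of BMP ligands, and the part of these cells in the values was not tested. In bulk RNA, a change in the number of cells of a type cannot be told apart from a change in RNA per cell.

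Of the 9 receptor genes, 4 had KO libraries wholly below WT, where 11.3% of all tested rows did: the TGF-beta type I receptor Tgfbr1, the BMP type I receptor Bmpr1a and the type II receptors Bmpr2 and Acvr2a. The co-receptor Eng (endoglin) lay wholly above WT, where 10.5% of all tested rows did. Both type I and type II receptors had members on either side of 0. None passed the test, and the class median was −0.06. Tgfbr1 (chromosome 4, 47353222 to 47414931, plus strand, GRCm38) measured 145, 145 and 145 CPM in KO, against 194, 167 and 168 CPM in WT. The KO libraries were nearly identical, with an SD of 0.129 CPM. At 2820, 3040 and 3357 counts the sampling of reads alone would spread them more, so this closeness is no measure of precision. The log2 fold change was −0.28 ± 0.075 (edgeR adjusted p = 0.264, DESeq2 0.0608). With each library left out in turn it stayed between −0.316 and −0.200. Bmpr1a (chromosome 14, 34410734 to 34503341, minus strand) was the most abundant receptor. It measured 342, 447 and 385 CPM in KO, against 470, 482 and 503 CPM in WT (log2 −0.31 ± 0.103, edgeR adjusted p = 0.279). KO replicate 2 came closest to WT, and without it the fold change was −0.413. KO replicate 1 was the lowest, and without it the fold change was −0.220.

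Bmpr2, the type II receptor of BMP signals and the main gene of inherited pulmonary arterial hypertension in humans, measured 171, 159 and 185 CPM in KO, against 197, 215 and 187 CPM in WT. The groups came close without overlapping (log2 −0.22 ± 0.082, edgeR adjusted p = 0.307). Acvr2a, a type II receptor for activins and some BMPs, measured 20.4, 22.1 and 24.3 CPM in KO, against 26.5, 29.1 and 26.0 CPM in WT (log2 −0.29 ± 0.089, edgeR adjusted p = 0.277). Its exons share 446 bases with Orc4 on the opposite strand, and the labels do not state whether the counting used strand. These 4 receptors kept negative fold changes under all 6 single-library omissions, between −0.413 and −0.161.

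Eng and Acvrl1 form a receptor complex that is prominent in endothelium, and both are genes of hereditary hemorrhagic telangiectasia in humans. Eng measured 89.9, 86.4 and 105 CPM in KO, against 82.5, 82.4 and 78.3 CPM in WT (log2 0.21 ± 0.081, edgeR adjusted p = 0.315). Acvrl1 measured 69.9, 70.7 and 90.8 CPM in KO, against 71.0, 70.4 and 70.6 CPM in WT (log2 0.13 ± 0.103). Its excess lay wholly in KO replicate 3, the library with the highest endothelial sum. Without that library the fold change of Acvrl1 was −0.008 and that of Eng 0.121. Eng was also above every WT library in KO replicates 1 and 2, whose endothelial sums (527 and 484 CPM) lay within the WT range. The part of endothelial cells in the values of Eng and Acvrl1 was not tested. Tgfbr2, the type II receptor that pairs with Tgfbr1, measured 199, 243 and 221 CPM in KO and 206, 237 and 192 CPM in WT. Its 95% interval ran from −0.18 to 0.31 on the log2 scale, that of the co-receptor Tgfbr3 from −0.25 to 0.19, and that of the type I receptor Acvr1 from −0.21 to 0.09.

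**Figure D2:**
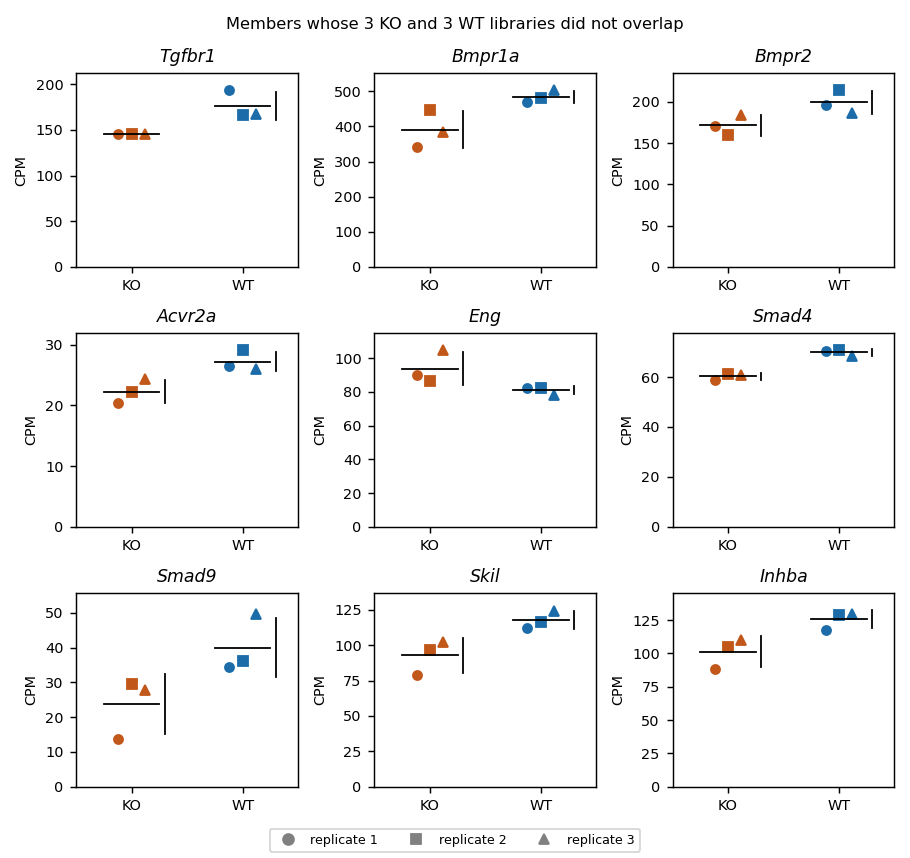
Level in CPM of the 9 members whose KO and WT libraries did not overlap, with KO to the left of WT; symbols mark the replicate, horizontal lines the mean and vertical bars 1 SD of 3 libraries. Tgfbr1 in KO lies at 145 CPM in all 3 libraries, Eng is the only panel with KO above WT, and Smad9 has its lowest point, 13.9 CPM, in KO replicate 1.

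Among the signalling Smads, 5 of 6 had fold changes below 0, with a class median of −0.12, and 0 passed the test. Smad4, the partner shared by the TGF-beta and BMP branches (chromosome 18, 73639009 to 73703780, minus strand), measured 58.8, 61.3 and 60.8 CPM in KO, against 70.5, 70.8 and 68.3 CPM in WT. Its groups did not overlap, with SDs of 1.33 CPM in KO and 1.34 CPM in WT. At 1140 to 1406 counts in KO and 1650 to 1781 in WT, the sampling of reads alone would spread them at least as much. The closeness within each group is therefore no measure of precision. Smad4 had the smallest p of the set (log2 −0.21 ± 0.051, edgeR adjusted p = 0.263, DESeq2 0.118). Single-library omissions gave −0.224 to −0.195, the narrowest range of the members named here as separated. Smad5, a BMP-activated Smad and the most abundant of the class by count, measured 67.9, 71.9 and 66.7 CPM in KO, against 77.1, 71.6 and 77.8 CPM in WT. KO replicate 2 lay just inside the WT range (log2 −0.13 ± 0.060, edgeR adjusted p = 0.359).

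Smad9, another BMP-activated Smad, measured 13.9, 29.6 and 27.7 CPM in KO, against 34.3, 36.0 and 49.8 CPM in WT. Its fold change was the furthest from 0 in its class (log2 −0.75 ± 0.274, edgeR adjusted p = 0.293). Without KO replicate 1 the fold change was −0.484, with KO still wholly below WT. Smad1, the remaining BMP-activated Smad, had an interval from −0.27 to 0.07 on the log2 scale. Smad2 and Smad3, which carry TGF-beta and activin signals, had fold changes of −0.02 ± 0.085 and 0.11 ± 0.096, with groups that overlapped. Within the class, levels per kilobase of exon averaged 17.5 CPM for Smad4, 9.72 for Smad5, 7.17 for Smad3, 5.94 for Smad9, 4.11 for Smad1 and 2.85 for Smad2.

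The intracellular inhibitors held the lowest median of the classes with more than 2 tested genes, −0.34 over 5 genes. Skil (SnoN), a nuclear corepressor of Smad complexes, measured 79.2, 96.7 and 103 CPM in KO, against 112, 117 and 124 CPM in WT. The groups did not overlap (log2 −0.34 ± 0.10, edgeR adjusted p = 0.273, DESeq2 0.0899), and without KO replicate 1 Skil had a fold change of −0.241. Its relative Ski was the most abundant of the class, with 265, 319 and 324 CPM in KO and 314, 346 and 335 CPM in WT (log2 −0.13 ± 0.094, and −0.045 without KO replicate 1). Tgif1, a homeobox corepressor of Smad2 and Smad3, went the other way with 15.8, 10.9 and 9.08 CPM in KO and 9.26, 8.30 and 9.40 CPM in WT, and its high value was that of KO replicate 1. Its log2 fold change was 0.41 ± 0.199, and 0.155 without that library. The class median without it was −0.045.

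The Id genes and the inhibitory Smads were each at their lowest in KO replicate 1, and none passed the test of genotype. Id1 to Id4 encode proteins that bind and block basic helix-loop-helix factors, and they are direct BMP targets. Id1 (chromosome 2, 152736251 to 152737410, plus strand) measured 29.8, 81.9 and 109 CPM in the KO libraries, against 68.3, 99.3 and 83.5 CPM in WT. Id2 measured 98.1, 262 and 209 CPM in KO, against 202, 291 and 246 CPM in WT. Id3, the most abundant Id gene, measured 130, 265 and 279 CPM in KO, against 224, 260 and 239 CPM in WT. Id4 measured 28.4, 88.3 and 58.9 CPM in KO, against 65.8, 78.8 and 70.0 CPM in WT. In each case KO replicate 1 was the lowest of the 6 libraries by a wide gap, while the other KO libraries lay inside or near the WT range.

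Smad7 (chromosome 18, 75367529 to 75395935, plus strand), which blocks the type I receptors of both branches, measured 19.8, 64.6 and 59.6 CPM in KO, against 58.1, 70.4 and 61.9 CPM in WT. Smad6, which acts mainly on the BMP branch, measured 19.5, 37.3 and 46.4 CPM in KO, against 35.9, 55.4 and 68.5 CPM in WT. The level in KO replicate 1 was 0.341 of the lowest other library for Smad7, 0.437 for Id1, 0.482 for Id4, 0.486 for Id2, 0.50 for Smad9, 0.544 for Smad6 and 0.578 for Id3. These 7 of 33 members (21.2%) lay under 0.6 of the lowest other library there, against 0.983% of all tested rows. For every other library the number of members under that ratio was 0, while the share of all tested rows lay between 0.247% and 1.17%. The next member, Skil, stood at 0.819. The ratio was chosen after the values were seen, so these figures describe the libraries and carry no test. KO replicate 1 was the lowest of the 6 libraries for 19 of 33 members (57.6%), against 22.6% of all tested rows.

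Over the genotypes, fold changes of these genes had wide errors. The log2 fold change was −0.18 ± 0.397 for Id1, −0.38 ± 0.320 for Id2, −0.10 ± 0.257 for Id3, −0.29 ± 0.337 for Id4, −0.63 ± 0.327 for Smad6 and −0.40 ± 0.367 for Smad7, with edgeR adjusted p between 0.398 and 0.873. Without KO replicate 1 the values were 0.189, −0.064, 0.176, 0.041, −0.350 and −0.031 in the same order. Only Smad6 kept a fold change beyond 0.2 in size there. Per kilobase of exon, mean levels over the 6 libraries were 130 CPM for Id3, 89.5 for Id2, 67.8 for Id1, 16.9 for Id4, 13.7 for Smad6 and 12.3 for Smad7.

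**Figure D3:**
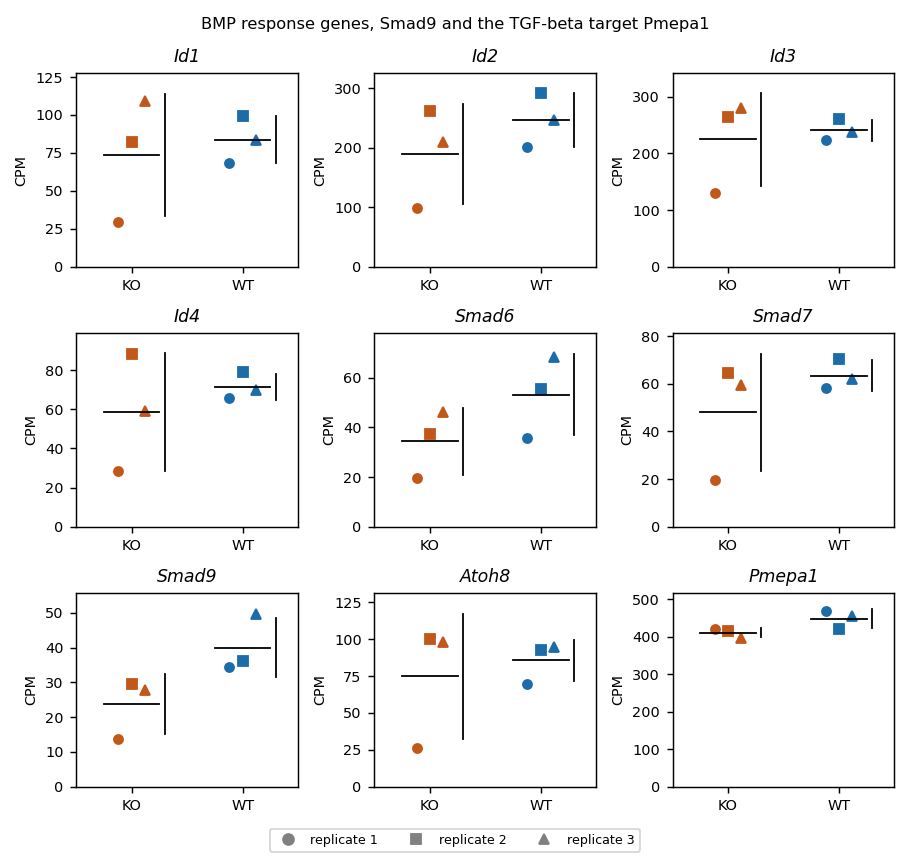
Level in CPM of the Id genes, the inhibitory Smads, Smad9, Atoh8 and Pmepa1, with KO to the left of WT; symbols mark the replicate, horizontal lines the mean and vertical bars 1 SD of 3 libraries. The circle of KO replicate 1 is the lowest point in the first 8 panels, while for Pmepa1, at 421 CPM, it lies within the WT range.

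Promoter sequence is shown for Id2, Id3, Id4 and Smad6, which were among the members with the low level in KO replicate 1. Smad7, Id1 and Smad9 shared that level and are not shown, and Id1 had no promoter entry. The windows, credited to RefSeq on GRCm38.p6, run from 250 bases before to 25 bases after the annotated start. They are chr12:25096068-25096342 (minus strand), chr4:136143572-136143846 (plus strand), chr13:48260866-48261140 (plus strand) and chr9:64022035-64022309 (minus strand). Capitals mark matches, on either strand, to 3 sequences that Smad proteins are known to bind: the palindrome GTCTAGAC, the GC-rich element GGCGCC and the short box CAGAC, whose reverse complement is GTCTG.
Id2: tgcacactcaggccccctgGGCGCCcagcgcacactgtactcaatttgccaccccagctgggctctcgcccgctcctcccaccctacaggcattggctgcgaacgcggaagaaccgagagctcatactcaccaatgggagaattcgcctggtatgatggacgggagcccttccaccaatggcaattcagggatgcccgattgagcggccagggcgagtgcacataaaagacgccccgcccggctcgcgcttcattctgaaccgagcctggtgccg
Id3: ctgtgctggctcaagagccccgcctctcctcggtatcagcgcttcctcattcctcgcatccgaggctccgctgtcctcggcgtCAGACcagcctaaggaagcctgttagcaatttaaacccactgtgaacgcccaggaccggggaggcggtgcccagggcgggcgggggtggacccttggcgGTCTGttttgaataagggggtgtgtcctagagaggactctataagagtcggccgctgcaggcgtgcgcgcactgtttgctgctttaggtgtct
Id4: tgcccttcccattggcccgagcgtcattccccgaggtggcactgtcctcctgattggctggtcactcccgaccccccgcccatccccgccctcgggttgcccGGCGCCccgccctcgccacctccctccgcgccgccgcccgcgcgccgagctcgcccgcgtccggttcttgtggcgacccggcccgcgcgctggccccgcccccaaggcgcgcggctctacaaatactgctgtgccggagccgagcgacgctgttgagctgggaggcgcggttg
Smad6: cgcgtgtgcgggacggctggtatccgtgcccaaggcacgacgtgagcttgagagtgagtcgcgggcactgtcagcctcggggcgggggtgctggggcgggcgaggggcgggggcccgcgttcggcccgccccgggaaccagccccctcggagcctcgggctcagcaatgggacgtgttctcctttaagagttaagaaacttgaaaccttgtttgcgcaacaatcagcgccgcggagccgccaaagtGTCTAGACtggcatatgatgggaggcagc

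The 4 windows held different matches, and no match overlapped another. Smad6 held the palindrome, beginning 4 bases before the start and running across it. Id2 and Id4 each held GGCGCC, beginning 231 and 148 bases before the start, and Id3 held 2 matches to CAGAC, beginning 167 and 68 bases before it. In windows of the same length, GTCTAGAC occurred in 0.192% of 32851 promoters, GGCGCC in 10.7% and CAGAC in 46.1%. Of the 24 members with a promoter entry, 1 held GTCTAGAC, 9 held GGCGCC and 10 held CAGAC, counting a match in any entry of a gene. The percentages count single promoters and were not matched for GC content, so they are no baseline for these member counts. A match describes these letters and is not a binding site.

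Of the 4 antagonists in the set, the membrane-bound decoy receptor Bambi had the highest level. It measured 24.2, 34.2 and 26.6 CPM in KO, against 30.3, 24.1 and 28.7 CPM in WT, with an interval from −0.30 to 0.37 on the log2 scale. Bmper, a secreted BMP-binding protein of endothelium and vessel wall, had 21, 17 and 43 counts in KO, against 67, 52 and 42 counts in WT (log2 −0.80 ± 0.350, edgeR adjusted p = 0.347). KO replicate 3 lay just inside the WT range in CPM, and the fold change was −1.211 without that library. Grem1 and Nog, secreted BMP antagonists, did not pass the filter. Grem1 had 16, 0 and 4 counts in KO and 14, 2 and 1 counts in WT, and Nog 2, 3 and 11 counts in KO and 5, 2 and 7 counts in WT. At such depth no difference could be detected.

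Other genes of the pathway were taken by role from a list of 79, of which 68 passed the filter. None passed in edgeR, and DESeq2 called 1, Fbn1. Of the 68, 44 (64.7%) had fold changes below 0, against 47.5% of all tested rows, with a median of −0.07. This count was not recomputed without KO replicate 1. At an unadjusted p under 0.05, 10 were lower in KO, where 7.76% of all tested rows were, and 1 was higher, where 6.8% were. Fbn1 encodes fibrillin-1, the microfibril protein that holds latent TGF-beta complexes in the matrix and is mutated in Marfan syndrome. It measured 406, 511 and 427 CPM in KO, against 584, 567 and 722 CPM in WT, without overlap (log2 −0.48 ± 0.126, edgeR adjusted p = 0.264, DESeq2 adjusted p = 0.022). Over the edgeR and limma-voom alternatives its adjusted p lay between 0.12 and 0.766. Furin, the protease that cleaves TGF-beta and BMP precursors, measured 68.0, 78.4 and 82.2 CPM in KO, against 92.2, 92.4 and 116 CPM in WT (log2 −0.40 ± 0.112).

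Genes of latency and activation had 9 of 12 tested members (75%) below 0, against 47.5% of all tested rows. This count, too, was not recomputed without KO replicate 1. The integrin subunit Itgav, part of the receptors that release latent TGF-beta, measured 146, 167 and 149 CPM in KO, against 183, 185 and 167 CPM in WT (log2 −0.21 ± 0.077). The groups came close without overlapping. Tab2, a kinase adaptor, measured 82.2, 80.6 and 77.0 CPM in KO, against 89.9, 88.5 and 101 CPM in WT (log2 −0.22 ± 0.069). Ldlrad4, a TGF-beta target that restrains Smad phosphorylation, measured 71.0, 67.0 and 71.9 CPM in KO, against 79.8, 75.2 and 84.4 CPM in WT (log2 −0.19 ± 0.064). For both, every KO library lay below every WT library. The BMP type I receptor Bmpr1b measured 43.8, 38.8 and 35.2 CPM in KO, against 51.2, 50.6 and 42.8 CPM in WT, with KO replicate 1 inside the WT range (log2 −0.30 ± 0.104). The other genes named as ligands had 7 of 8 tested members above 0, with a median of 0.25. The share below 0 was 12.5%, against 47.5% of all tested rows. KO replicate 1 lay above every other library for Gdf6, Inha, Bmp1 and Gdf11, and did not for Bmp3, Gdf10, Gdf15 and Inhbb. Levels were low for Gdf6, Gdf11, Gdf15, Inha and Inhbb, with means between 0.594 and 6.34 CPM. The member of that list with the smallest p was Bmp1, which despite its name encodes a procollagen protease. It measured 188, 133 and 136 CPM in KO, against 122, 122 and 118 CPM in WT (log2 0.34 ± 0.129, edgeR adjusted p = 0.315). Without KO replicate 1 its fold change was 0.158. Over the whole list of 68, KO and WT did not overlap for 20.6% of genes, against 21.8% of all tested rows.

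The wider list held genes that stood apart in KO replicate 1 too, described here after their values were seen. Atoh8, a BMP target in endothelium and other tissues, measured 26.0, 99.9 and 98.4 CPM in KO, against 69.9, 92.5 and 94.6 CPM in WT. The value in KO replicate 1 was 0.372 of the lowest other library, and the log2 fold change of −0.19 ± 0.430 became 0.210 without it. The BMP-family ligand Gdf6 had 90, 3 and 27 counts in KO and 15, 12 and 22 counts in WT. Other targets of the pathway, of either branch, did not all share the low level. In KO replicate 1 the BMP target Msx1 stood at 1.38 of the lowest other library and Bambi at 1.01, and Snai2 at 0.645. Pmepa1 and Ctgf, better known from the TGF-beta branch, stood at 1.06 and 1.22. Pmepa1 measured 421, 415 and 398 CPM in KO, against 470, 419 and 455 CPM in WT. Ctgf measured 1181, 970 and 1621 CPM in KO, against 1243, 1136 and 1970 CPM in WT. The low posterior Hox sum, the high heart muscle sum and the mitochondrial share of KO replicate 1 stand beside this pattern, and their part in it was not tested.

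**Figure D4:**
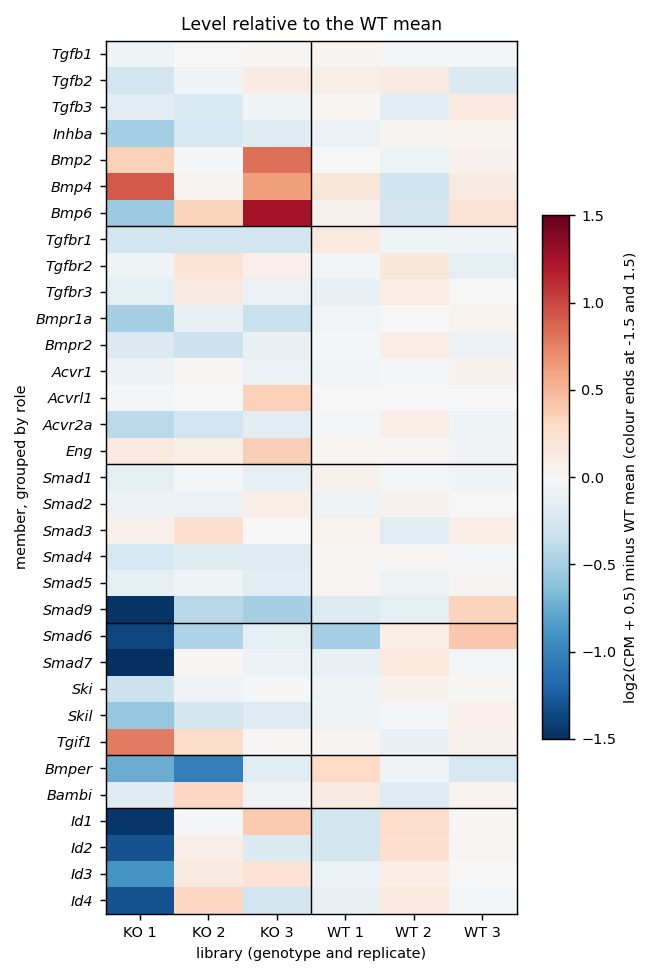
Level of each of the 33 tested members in each library as log2(CPM + 0.5) minus the mean of the 3 WT libraries, with KO to the left of WT and lines between roles; colours end at −1.5 and 1.5. The column of KO replicate 1 is dark blue for Smad9, Smad6, Smad7 and the Id genes, the row of Smad4 is pale blue in all 3 KO libraries, and the BMP ligands are red in KO replicate 3.

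Per library, the median over the 33 members was −0.25, −0.02 and −0.08 on that scale in KO replicates 1, 2 and 3, and between −0.02 and 0.01 in WT. By role, the library medians of the signalling Smads were −0.15, −0.08 and −0.15 in KO and between −0.05 and 0.03 in WT, and these were the only class with 3 or more genes in which the 2 ranges did not meet. The Id genes had −1.31, 0.12 and 0.00 in KO and between −0.19 and 0.20 in WT. The intracellular inhibitors had −0.57, −0.06 and −0.08 in KO and between −0.08 and 0.06 in WT.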

How the data were processed

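The authors deposited raw read counts per gene for 6 libraries (3 KO, 3 WT), which the submitters' processing notes credit to Trimmomatic 0.36 for trimming, STAR 2.6.0c, and Subread 1.6.1 (featureCounts), on GRCm38. The library kit was the stranded mRNA kit of Illumina TruSeq, per the labels' protocols. The labels state neither the annotation release nor the strand setting nor how multiply mapped reads were treated, so counts of overlapping or near-identical genes are uncertain. Columns were matched to libraries by the names in the labels.

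Counts were tested with edgeR 4.0.16 in R 4.3.3 (quasi-likelihood test, trimmed mean of M values, filterByExpr with a minimum count of 10 and a minimum total of 15), with genotype as the only term. Two-sided p-values were adjusted over 14145 rows (Benjamini and Hochberg, threshold 0.05). Log2 fold changes divide KO by WT and carry standard errors from the F statistic and 95% intervals. DESeq2 1.42.0, limma-voom (limma 3.58.1), other filters and scalings, the replicate number as a block and omission of libraries were alternatives. Each test was checked on simulated counts. Same-numbered KO and WT libraries deviated from their group means with correlations of 0.12, 0.12 and −0.0521 across genes, so libraries were not treated as pairs. Between replicates, chi-square per gene lay between 15.1 and 70.6, so none was a repeated deposit.

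Members and lists were chosen with earlier results of these data known. Values per library are given for the 12 members with the smallest p, members whose groups did not overlap, and the most abundant of each class; for the wider list, any called gene and the 6 with the smallest p. Other genes were named after their values were seen, and some genes of the wider list are counted but not reported here by name. Exon lengths and coordinates come from GENCODE M21 (GRCm38), promoters from RefSeq (GRCm38.p6), and levels per kilobase divide CPM by the union of exons.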

Additional observations from a re-analysis of the deposited data

How the results depend on the processing

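The count of called members was 0 under every alternative run, and the smallest adjusted p of a member was 0.0608, for Tgfbr1 in DESeq2. The count of all called rows, 1, was 199 in DESeq2, 9 with no filter and 0 with the replicate block, under which the smallest adjusted p of a member was 0.301. It lay between 0 (without WT replicate 1) and 3 (without KO replicate 2) over single omitted libraries. The wider list had 1 call in DESeq2 (Fbn1) and 0 elsewhere. The replicate numbers share nothing that the labels state, and not every library correlated best with its own number (KO replicate 3 had 0.164 with WT replicate 1).

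Omissions below cover each library in turn and KO replicates 1 and 3 together, where the lone KO library is assumed to vary like WT. The member median of −0.13 lay between −0.185 (without KO replicate 3) and −0.020 (the joint omission), and was −0.031 without KO replicate 1. The receptor median lay between −0.118 (without KO replicate 2) and 0.004 (the joint omission). That of the intracellular inhibitors lay between −0.420 (without KO replicate 3) and −0.045 (without KO replicate 1). The Id gene median ranged from −0.470 to 0.117. Antagonists had 0.041 at a mean count of at least 50, where Bmper drops out. Members without overlap between genotypes numbered 10 to 20, which fewer libraries make easier: all tested rows stood at 56.4% in the joint omission.

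Of 461 recomputed values of single genes, 24 changed sign, in 15 genes of which none had passed. Over the omissions their log2 fold changes ran from −0.034 to 0.010 for Tgfb1, −0.175 to 0.029 for Tgfb2, −0.020 to 0.642 for Bmp2 and −0.056 to 0.869 for Bmp6. They ran from −0.006 to 0.203 for Tgfbr2, −0.118 to 0.131 for Tgfbr3, −0.095 to 0.021 for Acvr1 and −0.008 to 0.192 for Acvrl1. For Smad2 they ran from −0.093 to 0.013, for Smad7 from −0.667 to 0.030 and for Bambi from −0.122 to 0.307. For Id1 the range was −0.582 to 0.189, for Id2 −0.678 to 0.093, for Id3 −0.288 to 0.176 and for Id4 −0.705 to 0.308. The causes were not tested. Counts were low for Grem1, Nog and Bmper, and each genotype had only 3 libraries.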
